A study of Mus musculus with 17 samples.

Results

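Motile cilia and ependymal genes are those that the scanner files name as axonemal dyneins (Dnah followed by a digit, Dnaic, Dnali), intraflagellar transport (Ift), tektin (Tekt), radial spoke head (Rsph), Bardet-Biedl (Bbs) or sperm-associated antigen (Spag) genes, together with Foxj1, Ccdc153 and Dynlrb2. A probe counted if 1 of its channels, or both, stood well above background on 2 or more arrays. The rule found 83 probes of 41174, for 47 genes of 24349, and all 83 probes passed the background criterion. By role these were 12 intraflagellar transport genes, 10 sperm-associated antigens, 8 Bardet-Biedl genes, 6 radial spoke genes, 5 tektins, 4 dynein intermediate or light chains, Foxj1 and Ccdc153. Spag6 probes are given as Spag6l, the gene at their position, and Sun5 entered by its older name Spag4l. The name rule reached no dynein heavy chain, because 0 probes carried the name Dnah with a digit. The 38 probes that the files name Dnahc, for 12 genes, are given apart.

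The series held 17 Agilent arrays of 2 colours. On each, cells derived from progenitors of the dorsal wall of the subventricular zone (SVZ), the neurogenic niche beneath the ependyma (Cy3), were set against cells derived from those of the lateral SVZ wall (Cy5) at 8 hours (2 arrays) or at 1 (3), 2 (2), 4 (3), 7 (3) or 14 days (4) after electroporation. All samples came from CD1 mice electroporated in vivo at postnatal day 1, and all were GFP-positive cells sorted by flow cytometry. The walls thus share strain, age and reporter. They differ in the wall targeted and, on every array, in the dye and in the type of RNA that the labels name. Arrays of 1 time are labelled biological replicates, with the number of animals behind each not given, and the labels name the Cy3 RNA polyA RNA and the Cy5 RNA total RNA.

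Motile cilia are the beating, multiple cilia with which ependymal cells, the lining of the brain ventricles, move cerebrospinal fluid. Each is built on an axoneme whose dynein arms bend it and whose radial spokes and central pair of microtubules time the bending, and Foxj1 is the transcription factor that switches on the genes of this machinery. Intraflagellar transport and Bardet-Biedl proteins carry cargo in the single primary cilium of most cells as well as in motile cilia. In the SVZ, ependymal cells arise from radial glia.

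Before labelling, cDNA was amplified by PCR with a commercial service whose protocol the labels do not disclose. The dyes were never swapped, so a constant effect of dye or of the named RNA type on a probe adds to each difference between the walls. Such a constant effect cancels in a change over time. The arrays lay on 5 slides. The 3 arrays of 1 day were alone on slide 1 and the 4 of 14 days alone on slide 4, so that slide and time cannot be told apart for these times, whereas 2, 4 and 7 days shared slides 2 and 3. The share of probes well above background was 41.0 to 76.7% for dorsal and 56.4 to 79.4% for lateral samples. Replicate 1 of 1 day and replicate 2 of 14 days stood apart, with median correlations of 0.705 and 0.771 with the other arrays. Values below are normalized log2 intensities, each gene by its brightest probe, and levels of different genes are not compared.

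Promoters of the members are described here, and a link between their letters and the members' changes over time was not tested. RefSeq promoter windows on GRCm38.p6, running from 250 bases before to 50 bases after the annotated start, matched 38 of the 47 genes by symbol. They were searched on both strands for GTTGCC, the core of the X-box bound by RFX factors, for a fuller X-box, GTTNCC and GNAAC with 3 letters between them, which contains the core where its first N is G, and for the forkhead core GTAAACA. The core lay in 16 of 38 member promoters (42.1%) and in 14.1% of all 27025 genes with a promoter. The fuller X-box lay in 3 of 38 (7.89%) against 0.936% of all genes, and the forkhead core in 1 of 38 (2.63%) against 4.05%. By the test over time given below, the core lay in 5 of 9 called members with a promoter (55.6%). It lay in 11 of 29 members not called (37.9%). Dnali1, Spag5, Spag17 and Ift46, which were called, held no core, and Foxj1 had no matched promoter. These counts describe letters in the windows and were not tested.

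The bases before the start are printed 5′ to 3′ for 4 members whose level changed over time and which hold the core there, with the matched letters in capitals (GGCAAC is the core read on the opposite strand). Spag16 lies on the plus strand at chr1:69826720-69826969, Ccdc153 on the plus strand at chr9:44240427-44240676, Dynlrb2 on the plus strand at chr8:116504765-116505014 and Tekt1 on the minus strand at chr11:72361883-72362132, all on GRCm38.p6. The match began 152 bases before the start in Ccdc153 and 51 in Dynlrb2. In Spag16 1 core began 111 bases before the start and the fuller X-box 103 bases before it, and in Tekt1, which has 2 annotated promoters, the cores of the promoter shown began 35 and 15 bases before the start.
Spag16: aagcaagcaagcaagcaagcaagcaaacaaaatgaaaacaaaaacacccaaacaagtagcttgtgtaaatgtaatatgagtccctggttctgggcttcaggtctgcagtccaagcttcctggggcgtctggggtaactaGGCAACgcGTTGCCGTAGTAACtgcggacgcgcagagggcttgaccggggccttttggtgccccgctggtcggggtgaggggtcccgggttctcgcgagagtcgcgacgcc
Ccdc153: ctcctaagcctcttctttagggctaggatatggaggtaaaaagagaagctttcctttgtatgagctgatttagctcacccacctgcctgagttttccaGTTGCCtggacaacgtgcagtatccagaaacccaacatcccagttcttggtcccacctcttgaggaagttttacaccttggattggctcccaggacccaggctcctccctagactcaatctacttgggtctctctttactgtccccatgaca
Dynlrb2: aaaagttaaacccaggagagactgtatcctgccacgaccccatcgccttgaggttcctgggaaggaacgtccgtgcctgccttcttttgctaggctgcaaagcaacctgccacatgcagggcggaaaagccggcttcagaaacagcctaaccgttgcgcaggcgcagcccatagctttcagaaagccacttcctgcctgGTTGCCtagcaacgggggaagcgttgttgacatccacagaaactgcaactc
Tekt1: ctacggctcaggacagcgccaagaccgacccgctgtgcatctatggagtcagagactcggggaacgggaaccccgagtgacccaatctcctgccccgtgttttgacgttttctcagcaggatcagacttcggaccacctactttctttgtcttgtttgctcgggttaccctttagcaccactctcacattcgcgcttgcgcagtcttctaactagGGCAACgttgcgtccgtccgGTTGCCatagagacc

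Whether members changed over time was tested with limma on the mean of both walls (an F test over the 6 time points, Benjamini-Hochberg adjustment over all genes, threshold 0.05). A total of 10 of 47 members (21.3%) passed, against 8.08% of all genes tested. They were Foxj1, Ccdc153, Dynlrb2, Dnali1, Tekt1, Spag5 (a mitotic spindle protein), Spag6l, Spag16, Spag17 and Ift46. With every probe fitted separately, a dimmer second probe also passed this F test for Dynlrb2 (limma adjusted p = 0.0212) and Spag5 (0.00327). Dimmer probes of Tekt1 (0.177), Spag6l (0.668), Spag17 (0.103), Spag16 (0.492 and 0.773) and Ift46 (0.333) did not. The brightest Ift46 probe had 0.0541 in that fit. The median of the largest difference between time means was 2.10 over the members and 1.39 over all genes, on the log2 scale. By role, 2 of 4 dynein chains, 4 of 10 sperm-associated antigens, 1 of 5 tektins, 1 of 12 intraflagellar transport genes, 0 of 6 radial spoke genes and 0 of 8 Bardet-Biedl genes passed. The count was 4 without replicate 2 of 2 days, 5 without either 8 hours array, and 6 without replicate 1 of 2 days, replicate 1 or 2 of 4 days or replicate 2 of 7 days. Of the 17 fits with 1 array left out, the call held in 4 for Ift46, 5 for Spag6l and 8 for Spag5 and Spag16. It held in 11 for Tekt1, 16 for Spag17 and all 17 for Foxj1, Ccdc153, Dynlrb2 and Dnali1.

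**Figure D1:**
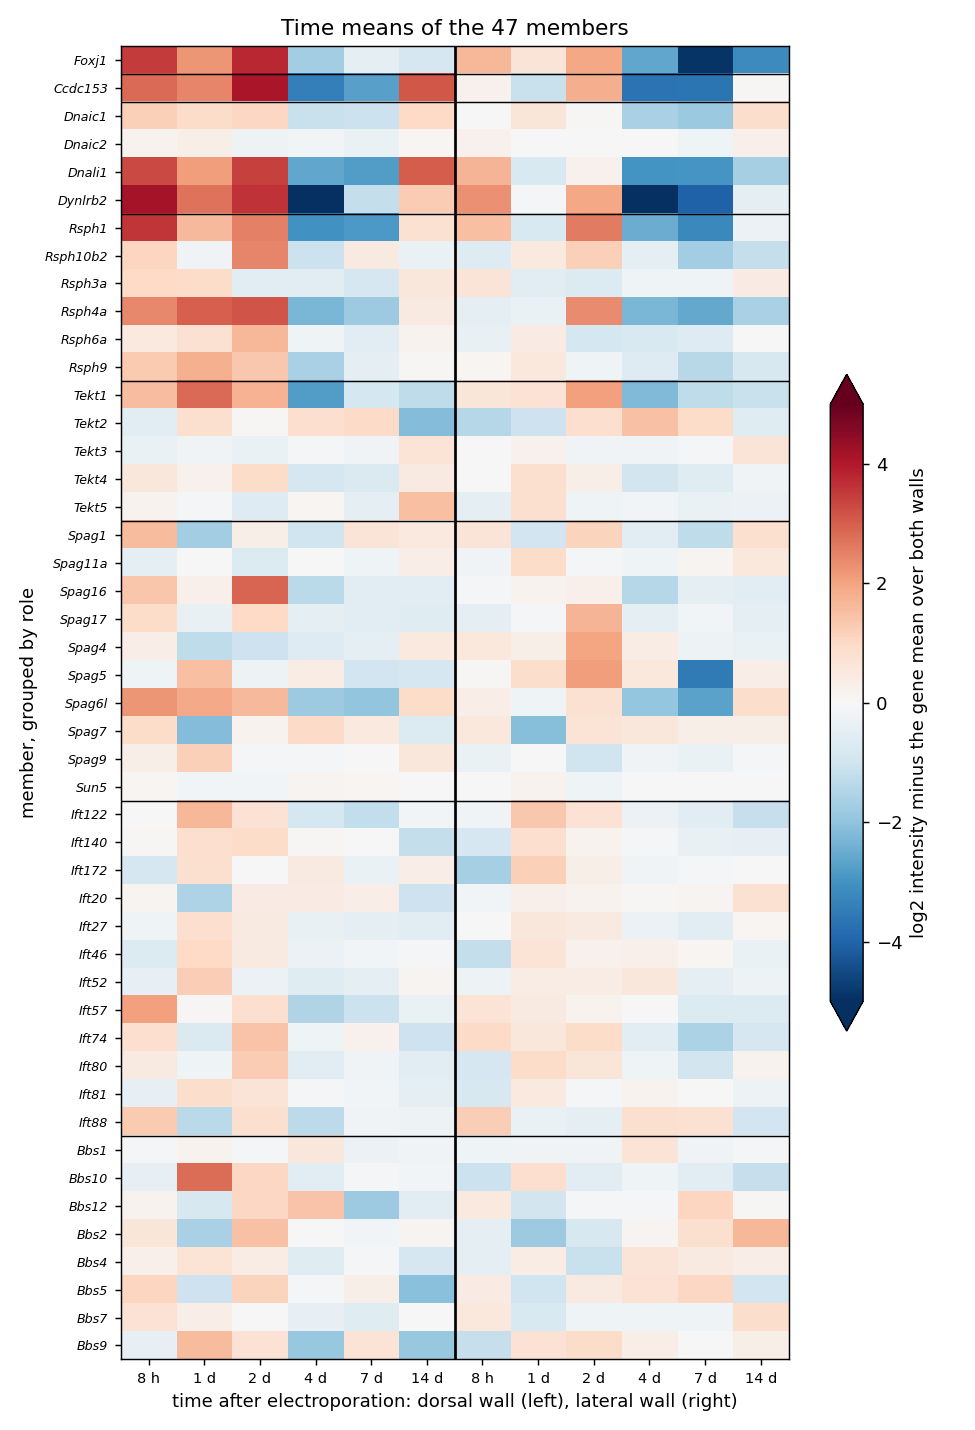
Time means of the 47 members, as log2 intensity minus each gene's mean over both walls (colour), by time after electroporation (columns; dorsal wall left, lateral wall right), with genes grouped by role (rows). Foxj1, Ccdc153, Dnali1, Dynlrb2, Rsph1 and Rsph4a are red at 8 hours to 2 days in the dorsal wall and blue at 4 and 7 days in the lateral wall, while most Ift and Bbs rows stay pale.

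At 4 days 6 of 47 members (12.8%) were lower than at 2 days and 0 were higher, against 0.431% of all genes lower and 0.711% in either direction. In cells sorted as a mixture, fewer cells of a type and less RNA per cell cannot be told apart. The member median of this difference was -0.60 on the log2 scale, against 0.09 over all genes, and 35 of 47 members had a negative value.

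Foxj1, the regulator, was measured by a probe at chr11:116192214-116192273 (mm9, minus strand). In the dorsal samples its log2 intensities were 14.82 and 15.04 after 8 hours, 10.88, 14.75 and 15.38 after 1 day, 14.81 and 15.59 after 2 days, 12.46, 7.76 and 8.88 after 4 days, 8.37, 13.86 and 10.79 after 7 days, and 10.20, 8.48 and 13.17 after 14 days. In the lateral samples they were 13.23 and 12.97 after 8 hours, 11.40, 11.63 and 13.27 after 1 day, 13.34 and 13.39 after 2 days, 7.64, 8.76 and 10.08 after 4 days, 7.02, 6.55 and 6.03 after 7 days, and 6.83, 9.07 and 8.94 after 14 days. The spot of replicate 3 at 14 days was an outlier and was left out. Every sample at 4 days lay below every sample at 2 days in its wall, and all lateral samples of 7 and 14 days lay below all lateral samples of the first 3 times, whereas the dorsal samples of those times overlapped. The log2 difference of 4 minus 2 days was -5.02 ± 1.00 (SE, limma adjusted p = 0.0427). This call held in 7 of 17 fits with 1 array left out and in 14 of 28 alternatives of the processing in all.

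Ccdc153, a coiled-coil protein used as an ependymal marker, was measured at chr9:44054861-44054920 (mm9, plus strand). The dorsal log2 intensities were 13.77 and 13.54 after 8 hours, 12.03, 14.50 and 13.17 after 1 day, 14.25 and 15.53 after 2 days, 7.54, 7.51 and 7.16 after 4 days, 8.12, 9.29 and 6.90 after 7 days, and 10.98, 17.22 and 13.53 after 14 days. The lateral ones were 9.34 and 12.68 after 8 hours, 13.30, 7.90 and 7.93 after 1 day, 12.98 and 12.30 after 2 days, 7.01, 7.02 and 7.25 after 4 days, 7.89, 6.63 and 6.90 after 7 days, and 13.97, 10.75 and 7.93 after 14 days. Replicate 1 of 14 days was an outlier spot and was left out. Samples of 4 and 7 days were low and close together in both walls, and all samples of 14 days lay above all samples of 7 days in the same wall. The difference of 4 minus 2 days was -6.52 ± 0.83 (adjusted p = 0.00517), and that of 14 minus 7 days was 4.78 ± 0.75 (adjusted p = 0.0143, limma).

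Dynlrb2, a light chain of the roadblock family found with dynein in ciliated cells, was measured at chr8:119039711-119039770 (mm9, plus strand). The dorsal log2 intensities were 16.11 and 15.51 after 8 hours, 12.54, 15.40 and 15.08 after 1 day, 14.38 and 16.12 after 2 days, 6.40, 6.64 and 6.43 after 4 days, 11.15, 12.75 and 7.40 after 7 days, and 15.08, 9.96 and 13.73 after 14 days. The lateral ones were 13.43 and 14.38 after 8 hours, 11.22, 8.70 and 14.74 after 1 day, 13.36 and 13.81 after 2 days, 6.35, 6.98 and 6.49 after 4 days, 9.18, 7.41 and 6.22 after 7 days, and 10.01, 11.60 and 11.81 after 14 days. The probe was not well above background on any dorsal sample of 4 days, so the dorsal level there (mean 6.49) was at least 435-fold lower than at 2 days (mean 15.25). Over both walls the difference of 4 minus 2 days was -7.87 ± 1.07 (limma adjusted p = 0.00734), without replicate 3 of 14 days, an outlier spot. A second Dynlrb2 probe, fitted with every probe separately, gave -7.48 (adjusted p = 0.076). Levels at 14 days lay above those at 4 days in all samples, and the difference of 14 minus 7 days was 3.01 ± 0.95 (adjusted p = 0.214).

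Dnali1, a light chain of the inner dynein arms, was well above background on all 17 arrays. The dorsal log2 intensities were 13.94 and 13.37 after 8 hours, 10.73, 13.22 and 13.36 after 1 day, 13.49 and 14.09 after 2 days, 7.68, 8.07 and 7.53 after 4 days, 7.42, 8.13 and 7.21 after 7 days, and 14.55, 8.92, 15.59 and 14.50 after 14 days. The lateral ones were 11.81 and 12.35 after 8 hours, 8.49, 8.43 and 11.92 after 1 day, 9.21 and 11.94 after 2 days, 7.36, 7.28 and 7.43 after 4 days, 7.43, 7.48 and 7.35 after 7 days, and 8.24, 9.12, 9.29 and 8.15 after 14 days. Dorsal replicates 1, 3 and 4 of 14 days lay above both dorsal samples of 2 days, replicate 2 lay far below them, and all 4 lateral samples of 14 days lay below both lateral samples of 8 hours. The difference of 4 minus 2 days was -4.62 ± 0.90 (limma adjusted p = 0.0363), and that of 14 minus 7 days was 3.54 ± 0.76 (adjusted p = 0.0526). The call of 4 minus 2 days held in 8 of 17 fits with 1 array left out and in 18 of 28 alternatives in all.

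Spag16 and Spag17, proteins of the axoneme's central pair of microtubules, were the other members that fell. Their probes lay at chr1:70771524-70771583 and chr3:99853073-99853131 (mm9, plus strand). For Spag16 the dorsal log2 intensities were 6.64, 6.94 and 6.41 at 4 days, against 10.90 and 10.95 at 2 days. The lateral ones were 6.55, 6.61 and 6.57 at 4 days, against 8.31 and 8.27 at 2 days. The walls moved the same way without overlap between the times, by -2.99 ± 0.58 (adjusted p = 0.0362). At the other times the dorsal values of Spag16 were 10.52 and 8.28 after 8 hours, 7.92, 9.39 and 7.53 after 1 day, 6.68, 9.09 and 6.56 after 7 days, and 7.86, 6.82, 8.31 and 6.82 after 14 days, and the lateral ones 6.57 and 9.29 after 8 hours, 7.09 and 6.83 in replicates 1 and 2 after 1 day, 6.62, 5.89 and 10.22 after 7 days, and 7.95, 6.91, 8.40 and 6.68 after 14 days. Replicate 3 of 1 day was high in the lateral sample, with a dorsal minus lateral difference of -3.17, and lateral replicate 3 of 7 days was likewise far above the other lateral samples of that time. For Spag17 the dorsal values were 7.15, 7.41 and 7.02 at 4 days, against 8.16 and 9.08 at 2 days, and the lateral ones 7.61, 6.90 and 7.06 at 4 days, against 8.80 and 9.84 at 2 days. Its difference was -1.78 ± 0.34 (adjusted p = 0.0305, limma). At the other times the dorsal values of Spag17 were 8.87 and 8.21 after 8 hours, 7.75, 7.25 and 6.74 after 1 day, 6.98, 7.02 and 7.19 after 7 days, and 6.81, 7.63, 6.68 and 6.99 after 14 days, and the lateral ones 6.73 and 7.60 after 8 hours, 7.48, 7.29 and 7.79 after 1 day, 7.09, 7.47 and 7.91 after 7 days, and 7.21, 7.54, 6.82 and 7.06 after 14 days. Most of these lay near the level of 4 days. The other probes of these genes, which were dimmer, did not pass: 2 of Spag16 gave -1.67 (adjusted p = 0.522) and -0.34 (0.964), and 1 of Spag17 gave -1.15 (0.536).

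**Figure D2:**
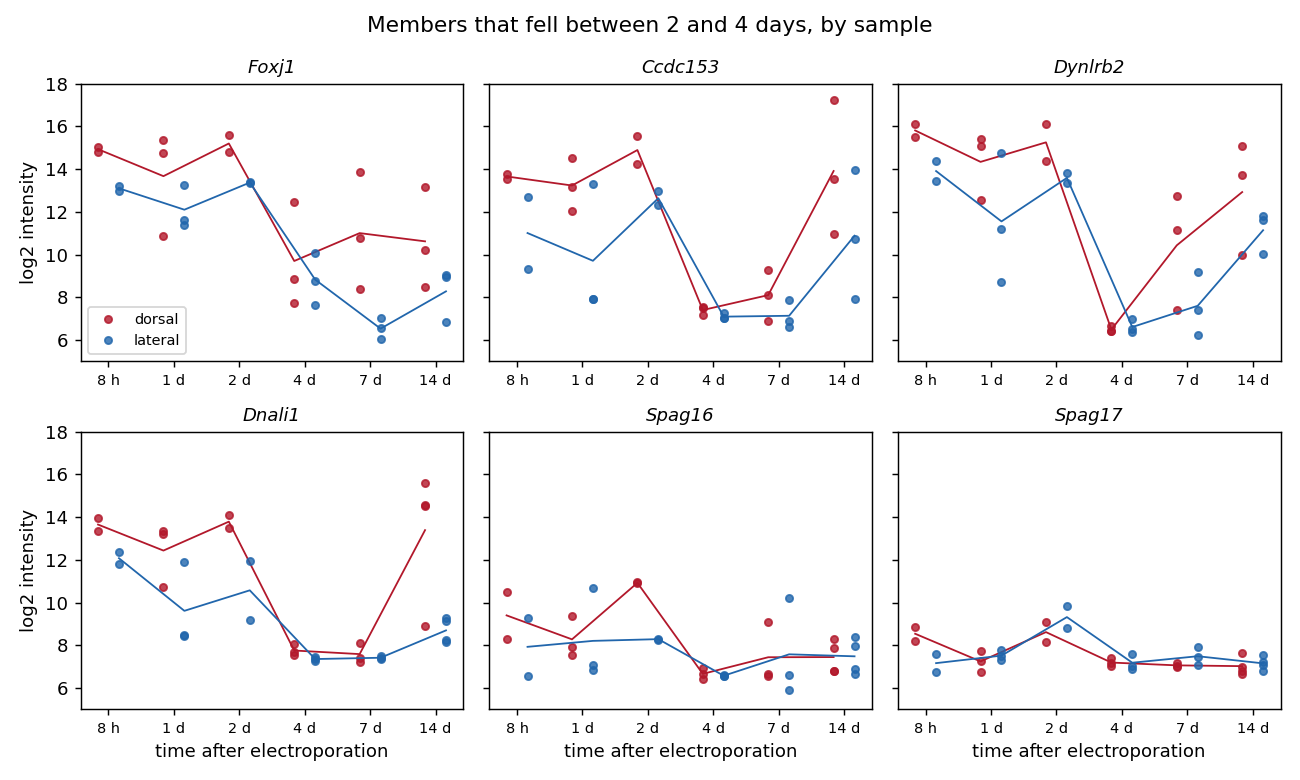
Log2 intensity of the 6 members that fell between 2 and 4 days, by time after electroporation; points are samples (dorsal left, lateral right at each time) and lines join the means. All samples of 4 days lie below all samples of 2 days in the same wall for these 6 genes.

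Other axonemal members had large negative values that did not pass the test. The log2 difference of 4 minus 2 days was -5.30 ± 1.62 for Rsph1 (adjusted p = 0.196) and -5.06 ± 1.22 for Rsph4a (0.0842), both radial spoke head proteins. It was -4.38 ± 1.01 for Tekt1 (0.0729), a tektin of the axonemal doublets, and -3.08 ± 0.99 for Spag6l (0.232), a central pair protein named after its values were seen. Rsph4a had dorsal log2 intensities of 11.37 and 10.31 after 8 hours, 9.65, 12.11 and 12.55 after 1 day, 10.56 and 12.59 after 2 days, 6.22, 6.20 and 6.01 after 4 days, 5.92, 7.90 and 5.98 after 7 days, and 8.87, 6.24, 14.05 and 6.30 after 14 days. Its lateral ones were 6.52 and 9.45 after 8 hours, 7.39, 7.81 and 9.09 after 1 day, 10.17 and 11.46 after 2 days, 6.28, 6.05 and 6.06 after 4 days, 5.93, 5.63 and 6.09 after 7 days, and 6.03, 6.25, 8.86 and 6.18 after 14 days. The samples of 4 and 7 days were low in both walls, and at 14 days replicate 3 was high in both walls. Rsph4a was not well above background on any 4-day sample of either wall. Its level there was at least 42.2-fold lower than at 2 days in the dorsal wall (measured means 6.15 at 4 days and 11.58 at 2 days) and at least 25.7-fold lower in the lateral wall (means 6.13 and 10.81). Tekt1 had dorsal log2 intensities of 11.96 and 12.46 after 8 hours, 14.11, 13.43 and 12.94 after 1 day, 11.34 and 13.44 after 2 days, 7.67, 8.44 and 7.49 after 4 days, 10.46, 10.65 and 8.16 after 7 days, and 7.04, 9.15, 13.54 and 7.79 after 14 days, and lateral ones of 11.66 and 10.86 after 8 hours, 11.91, 10.72 and 11.45 after 1 day, 13.01 and 12.38 after 2 days, 7.53, 9.19 and 8.65 after 4 days, 10.56, 7.55 and 10.09 after 7 days, and 7.22, 9.21, 10.86 and 10.87 after 14 days. All its samples of 8 hours to 2 days lay above all samples of 4 days, and those of 14 days spread over the range of both. Tekt2, another tektin, had 0.71 ± 0.91 (adjusted p = 1) and Tekt4 had -1.49 ± 0.62 (0.447). Dnaic1, an intermediate chain of the outer dynein arms, had -1.90 ± 0.85 (0.521) and Rsph9, a radial spoke head protein, -1.70 ± 0.59 (0.29). Rsph1 had dorsal log2 intensities of 13.90 and 13.77 after 8 hours, 13.51, 8.41 and 13.73 after 1 day, 11.79 and 13.77 after 2 days, 6.68, 8.41 and 6.64 after 4 days, 6.54, 9.13 and 6.51 after 7 days, and 7.12, 9.28, 14.50 and 13.13 after 14 days, and lateral ones of 11.19 and 12.34 after 8 hours, 9.23, 6.79 and 12.48 after 1 day, 13.03 and 12.66 after 2 days, 6.86, 8.36 and 8.10 after 4 days, 6.41, 7.83 and 6.85 after 7 days, and 7.04, 10.05, 11.43 and 11.36 after 14 days, with replicate 2 of 1 day low in both walls. Rsph3a had 0.22 ± 0.68 (1), Spag7 0.33 ± 1.46 (1) and Spag5 -0.49 ± 0.72 (1).

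Intraflagellar transport and Bardet-Biedl genes, which serve primary cilia as well, were not called in this step. All 12 intraflagellar transport genes had negative differences of 4 minus 2 days, from -1.52 to -0.0030 with a median of -0.49, and 0 passed. The 8 Bardet-Biedl genes ranged from -1.60 to 0.76 with a median of -0.22, and 0 passed. Among the brightest of these, Ift20 had -0.07 ± 0.57 (adjusted p = 1), Ift140 -0.56 ± 0.53 (0.989), Bbs4 0.39 ± 0.96 (1), Bbs5 -0.47 ± 1.33 (1) and Bbs9 -1.60 ± 0.71 (0.502). Ift46, of the transport particle that carries axonemal cargo, was 1 of 2 members called at another step, the other being Ccdc153 between 7 and 14 days. It had 14.65, 14.79 and 14.07 after 1 day, against 12.84 and 12.79 after 8 hours, in the dorsal samples, and 15.46, 13.65 and 13.51 after 1 day, against 12.35 and 12.32 after 8 hours, in the lateral ones. It was higher by 1.78 ± 0.34 (limma adjusted p = 0.0221), as 1 of 47 members (2.13%) against 0.661% of all genes higher and 1.61% in either direction, between times on different slides. No other member was called between 8 hours and 1 day, and 0 were called between 1 and 2 days or between 4 and 7 days, against 0.00411% and 0.0862% of all genes. At an unadjusted p under 0.05 limma gave 6 members (12.8%) between 1 and 2 days, against 9.17% of all genes, and 3 members (6.38%) between 4 and 7 days, against 4.38%.

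**Figure D3:**
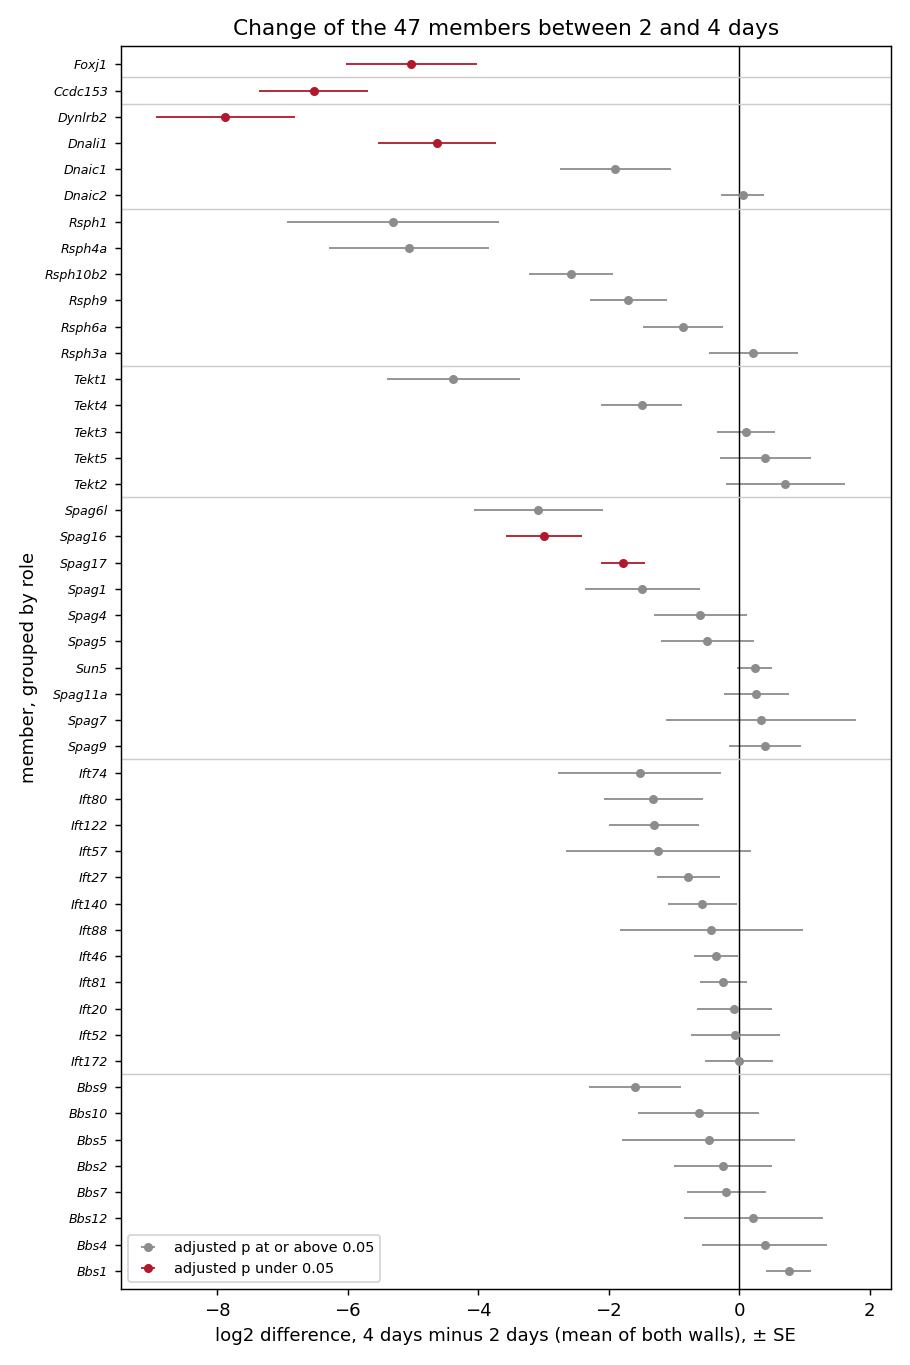
Log2 difference of 4 minus 2 days (x axis, mean of both walls, bars ± SE) for each of the 47 members, grouped by role; red marks an adjusted p under 0.05. The 6 red members run from -7.87 (Dynlrb2) to -1.78 (Spag17), and the Ift and Bbs genes lie between -1.60 and 0.76.

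Within slides the 6 genes were lower at 4 days. This follows from the samples above, where all of 4 days lay below all of 2 days in each wall. The values therefore give sizes and are no separate support. On slide 2 the differences of 4 minus 2 days were -7.50 for Dynlrb2, -6.34 for Ccdc153, -4.03 for Foxj1, -3.83 for Dnali1, -3.01 for Spag16 and -1.10 for Spag17. On slide 3 they were -8.16, -6.65, -6.23, -5.34, -2.83 and -2.31 for the same genes in that order. With slide as a fixed block over the 10 arrays of slides 2, 3 and 5, an alternative chosen after seeing the data, 14 of 47 members were lower at 4 than at 2 days and 0 higher, against 6.8% of all genes called. The 14 took in Rsph1, Rsph4a, Tekt1, Tekt4, Spag1, Spag6l, Dnaic1 and Ift57 besides the 6, named because this fit called them. In the same fit 9 members were called in dorsal samples (3.82% of all genes) and 2 in lateral ones (0.784%), all lower at 4 days. At 7 days, against 8 hours and 2 days together, it called 17 members in the mean of both walls (14.5% of all genes), 10 in dorsal samples (5.81%) and 11 in lateral ones (9.43%), all lower except 1 that was higher in lateral samples. The count of 6 depended on single arrays: it was 0 without either array of 2 days, which leaves 1 sample there, 2 without any 1 array of 4 days or of 8 hours, and 4 without replicate 1 or 3 of 7 days. It was 15 with array weights, where 8.99% of all genes were called, and 3 with the scanner software's processed signals, where 0.407% were. At 2, 4 and 7 days the replicate number coincides with the slide, and with the replicate block the count was 3, against 0.378% of all genes.

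The walls were also followed apart, with late samples (7 and 14 days) set against early ones (8 hours, 1 and 2 days). In the lateral wall 5 of 47 members (10.6%) were lower late and 0 higher, against 2.43% of all genes lower and 5.17% in either direction. Foxj1 differed by -5.45 ± 0.50 (adjusted p = 6.93e-05), Dynlrb2 by -3.65 ± 0.83 (0.0237), Dnali1 by -2.70 ± 0.55 (0.0126), Rsph4a by -2.61 ± 0.54 (0.0133) and Ift122 by -1.49 ± 0.31 (0.014, limma). Lateral Rsph4a was well above background on 0 of 3 arrays of 7 days and 1 of 4 of 14 days, so its late level is mostly a bound and the size of its difference is not measured. Lateral Ift122, of the retrograde transport particle, had 11.65, 12.59 and 11.87 at 7 days and 11.35, 10.17, 12.38 and 11.96 at 14 days, against 12.40 and 12.45 at 8 hours, 14.08, 14.02 and 13.81 at 1 day and 13.36 and 13.30 at 2 days. Its late samples overlapped those of 8 hours and lay below those of 1 and 2 days. The member median was -0.49, against 0.05 over all genes. In the same comparison 11 of 16 proliferation genes were lower and 12 of 16 neuroblast markers higher late, and their part in the members' changes was not tested.

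In the dorsal wall 2 of 47 members (4.26%) were lower late and 0 higher, against 2.19% of all genes lower and 3.18% in either direction. They were Spag16 (-2.09 ± 0.50, adjusted p = 0.039) and Spag17 (-1.09 ± 0.25, 0.0307). Dorsal Foxj1 had -3.79 ± 1.15 (0.114). The member median was -0.90, against 0.02 over all genes, and 39 of 47 members had negative values, among them all 8 Bardet-Biedl genes. Of 16 neuroblast markers 10 were higher late, and of 14 radial glia markers 6 were lower, and the part of these in the members' changes was not tested. The dorsal count was 0 without replicate 1 of 8 hours, replicate 2 of 2 days, replicate 1 or 3 of 7 days or replicate 4 of 14 days, and it was 6 without replicate 3 of 14 days. It was 1 without replicate 2 of 8 hours, replicate 2 of 1 day, replicate 1 of 2 days, any 1 array of 4 days or replicate 2 of 7 days. With the replicate block neither gene was called.

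The change of the difference between walls, late minus early, tests whether the walls changed unequally. It was called for 0 of 47 members with limma, against 0.14% of all genes, so the dorsal and lateral counts are not shown to differ. At an unadjusted p under 0.05 it gave 2 members (4.26%), against 9.94% of all genes. It was 1.66 ± 1.30 for Foxj1 (adjusted p = 0.711).

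At 14 days, against 8 hours, 1 member was lower in the lateral wall, against 1.18% of all genes lower and 2.33% in either direction. This was Foxj1, by -4.82 ± 0.81 (limma adjusted p = 0.00692), and it was not called without either array of 8 hours. The count was 2 without replicate 1 or 3 of 1 day or either array of 2 days. In the dorsal wall limma called 0 members, against 1.58% of all genes, and at an unadjusted p under 0.05 it gave 4 members (8.51%), against 13.1% of all genes. Dorsal Dnali1 at 14 days differed from 8 hours by -0.26 ± 1.38 (adjusted p = 0.949) and dorsal Ccdc153 by 0.25 ± 1.37 (0.95). Without replicate 2 of 14 days these were 1.23 ± 0.69 (0.553) for Dnali1, with the sign turned, and 1.72 ± 1.14 (0.623) for Ccdc153. Between 7 and 14 days, 1 of 47 members was higher, against 0.51% of all genes higher and 0.691% in either direction. This was Ccdc153 (above), and it was not called without replicate 1 or 3 of 7 days. The count was 4 without replicate 1 of 14 days, and 2 without replicate 2 of 14 days or replicate 1 or 3 of 1 day.

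Between the walls, averaged over the 6 times, 3 of 47 members (6.38%) were higher in dorsal samples and 0 lower, against 1.35% of all genes higher and 2.47% in either direction. The member median of the dorsal minus lateral difference was 0.10, against 0.02 over all genes, and 31 of 47 members were positive. Dnali1 was higher by 2.15 ± 0.46 (limma adjusted p = 0.0294), in 14 of 17 arrays. This call held in 9 of 17 fits with 1 array left out and in 20 of the 29 alternatives in all. The differences of Dnali1 were 2.13 and 1.02 after 8 hours, 2.23, 4.79 and 1.44 after 1 day, 4.29 and 2.14 after 2 days, 0.32, 0.79 and 0.09 after 4 days, -0.0021, 0.65 and -0.14 after 7 days, and 6.31, -0.20, 6.30 and 6.35 after 14 days. They lay between -0.14 and 0.79 on the arrays of 4 and 7 days, when the gene was low in both walls.

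Rsph6a, a radial spoke head paralogue, was higher in dorsal samples by 0.77 ± 0.18 (adjusted p = 0.0398), in 15 of 17 arrays. This call held in 3 of 17 fits with 1 array left out and in 9 of the 29 alternatives in all. Spag9, a scaffold of JNK signalling and not an axonemal protein, was higher by 0.62 ± 0.11 (adjusted p = 0.0151), in 15 of 17 arrays. When every probe was fitted separately, 4 of the 6 Spag9 probes had negative values, 1 of them at -0.83 with an adjusted p of 0.048, so the direction of Spag9 rests on its brightest probe. In the same limma fit a dimmer Spag5 probe was lower in dorsal samples (-0.68, adjusted p = 0.0174). A dimmer Spag17 probe was higher (0.82, 0.0344). Neither gene was called by its brightest probe, so the counts depend on this choice. The difference of Foxj1 was 2.15 ± 0.59 (adjusted p = 0.0844), that of Ccdc153 2.12 ± 0.76 (0.18), that of Dynlrb2 1.81 ± 0.57 (0.128) and that of Rsph4a 1.62 ± 0.40 (0.0556). All 6 radial spoke genes had positive values. In the same comparison 4 of 10 astrocyte markers and 6 of 14 radial glia markers were higher in dorsal samples, and 4 of 16 neuroblast markers and 2 of 16 proliferation genes were lower. The list medians were 1.24, 0.71, -0.77 and -0.79 in that order. Of 18 ependymal markers 2 were higher and 0 lower, 0 had negative values, and the median was 0.92. Of 65 other motile cilia genes 2 were higher and 1 lower, 8 had negative values, and the median was 0.57. Of all genes, 1.35% were higher and 2.47% differed in either direction. The part of these lists in the members' differences was not tested.

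At single times limma called 0 of 47 members, against 0.37, 1.16, 0.177, 0, 0.0246 and 0.0247% of all genes at 8 hours, 1, 2, 4, 7 and 14 days. At an unadjusted p under 0.05 it gave 3, 9, 6, 1, 3 and 8 members in that order, which is 6.38, 19.1, 12.8, 2.13, 6.38 and 17% of the members, against 7.3, 16.5, 7.75, 5.46, 4.99 and 10.8% of all genes. The count of 3 in the mean over times was 1 without replicate 1 of 8 hours, replicate 1 of 2 days, replicate 1 or 3 of 4 days or any 1 array of 7 days, and 5 without replicate 1 of 1 day. With the replicate block 0 members were called, against 0.514% of all genes. It was 8 with median centring in place of loess, of which 5 were lower in dorsal samples, against 23.8% of all genes called in that setting. Median centring moved the median of all genes to -0.23, against 0.02.

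**Figure D4:**
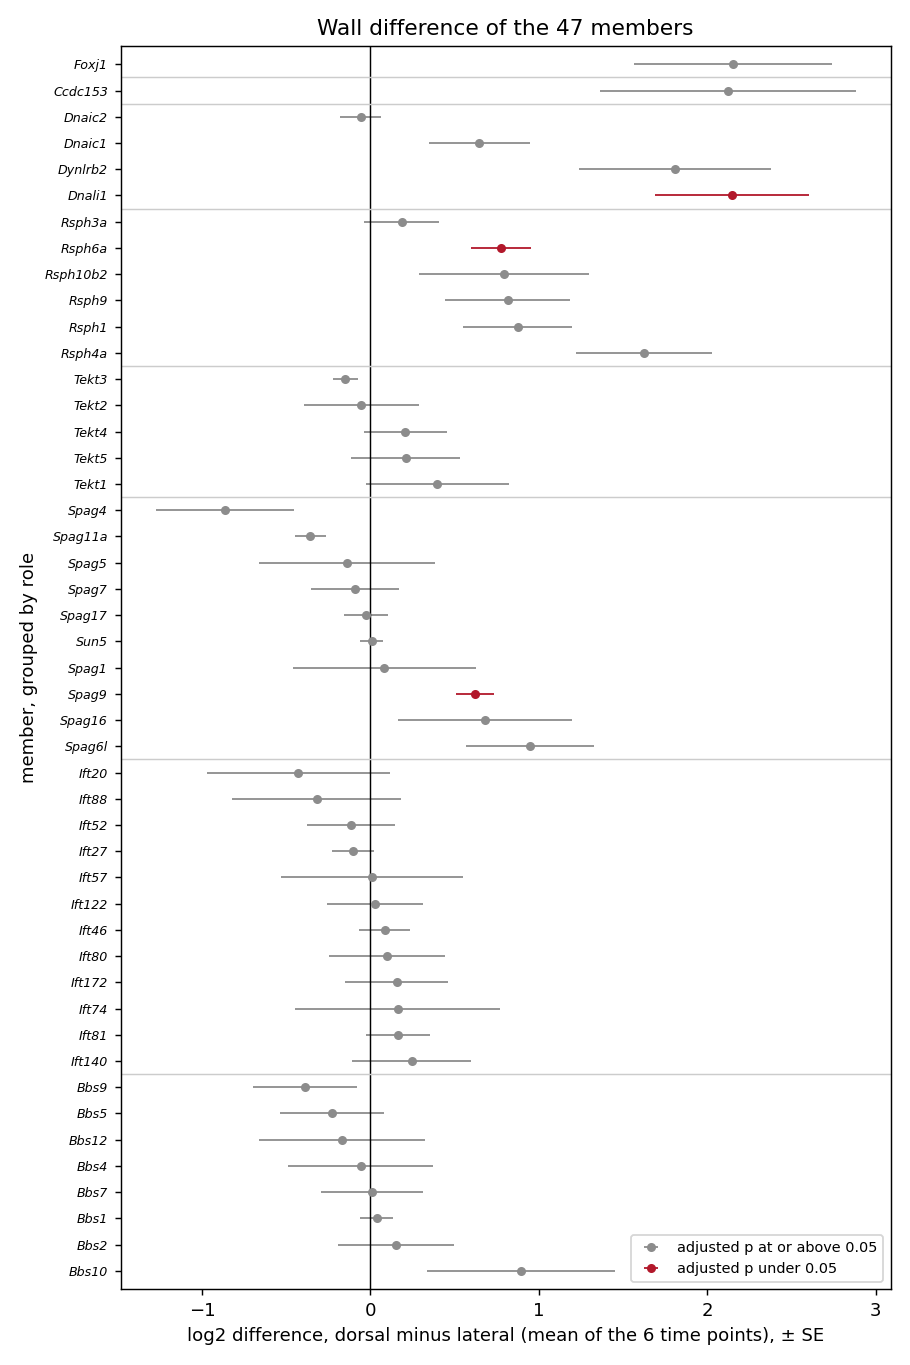
Dorsal minus lateral log2 difference, averaged over the 6 time points (x axis, bars ± SE), for each of the 47 members, grouped by role; red marks an adjusted p under 0.05. Dnali1 (2.15), Rsph6a (0.77) and Spag9 (0.62) are red, and Foxj1 and Ccdc153 have values as large as that of Dnali1 with wider errors.

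Other motile cilia genes were taken from a list of 68 genes that holds no member. Of 65 measured, 26 passed the F test over time, against 8.08% of all genes. The median difference of 4 minus 2 days was -2.46. At 4 days 7 were lower than at 2 days and 0 higher, against 0.431% of all genes lower. Those with the largest difference were Meig1 (-5.60 ± 1.12, limma adjusted p = 0.0394), Fam183b (-5.59 ± 1.09, 0.0362) and Morn5 (-4.20 ± 0.84, 0.0386). In the lateral wall 25 of the 65 were lower late and 0 higher, against 2.43% of all genes lower. In the dorsal wall 8 were lower and 0 higher, against 2.19% of all genes lower. Between 7 and 14 days 2 rose, against 0.51% of all genes. They were Mns1, by 4.30 ± 0.82 (limma adjusted p = 0.0362), and Enkur, by 3.74 ± 0.56 (0.0107). The list's median level was 7.64 in dorsal and 7.89 in lateral samples at 4 days, against 10.84 in dorsal and 9.99 in lateral samples at 2 days.

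The 12 dynein heavy chains that the files name Dnahc, the motors of the arms, were not called in this step. Their median difference of 4 minus 2 days was -0.29, and 0 of 12 passed, against 0.711% of all genes. The F test over time called 1 of 12, against 8.08% of all genes. Of 39 measured primary cilium genes, which serve the signalling cilium of most cells, 0 were called in that step, with a median of -0.25. The F test called 3 of the 39, against 8.08% of all genes.

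Marker genes of other cells also changed at these steps. Of all genes, 0.431% were lower at 4 than at 2 days, 0.711% differed in either direction, and 0.51% were higher at 14 than at 7 days. Of 10 astrocyte markers, 3 were lower at 4 than at 2 days and 0 higher, and 5 were higher at 14 than at 7 days and 0 lower. Their summed level, on the log2 scale, was 14.07 to 15.85 in dorsal and 13.80 to 15.44 in lateral samples at 4 days, against 18.43 to 18.51 in dorsal and 15.39 to 16.23 in lateral samples at 2 days. Of 14 radial glia markers, 1 was lower at 4 days, with a summed level of 16.96 to 17.80 in dorsal and 16.65 to 17.82 in lateral samples, against 18.91 to 19.28 in dorsal and 17.02 to 17.71 in lateral samples at 2 days.

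Of 16 neuroblast markers, 2 were higher at 4 days, all 16 had positive values, and their summed level was 18.43 to 18.88 in dorsal and 18.93 to 19.05 in lateral samples, against 17.04 to 17.21 in dorsal and 18.19 to 18.20 in lateral samples at 2 days. The choroid plexus, whose cells also bear motile cilia, was represented by 11 measured markers, of which 0 were called in that step. Their median levels were 6.73 in dorsal and 6.82 in lateral samples at 4 days, against 7.22 in dorsal and 7.07 in lateral samples at 2 days. Their summed level reached 17.46 in dorsal and 13.56 in lateral samples at 7 days. At 4 days it was 11.22 to 12.44 in dorsal and 11.91 to 13.14 in lateral samples. At 2 days it was 11.54 to 12.04 and 10.56 to 11.28, so the lateral sum was higher at 4 days without overlap. Of 12 microglia markers and 16 proliferation genes 0 were called, and all had negative values, with medians of -2.39 and -1.11. Over the 5 steps in order the microglia median was -3.66, 3.63, -2.39, 2.96 and -2.27, with 0 called in each. The microglia summed level was 16.11 to 16.87 in dorsal and 13.11 to 15.59 in lateral samples at 4 days. At 2 days it was 18.07 to 18.86 and 17.33 to 17.34. Of 8 erythroid markers 0 were called. Their highest summed level at 2 and 4 days was 17.87 and 12.74 in dorsal, and 12.10 and 16.99 in lateral samples. Of 18 ependymal markers, 2 were lower at 4 days, Fam183b and Tm4sf1 (-5.95 ± 1.21, adjusted p = 0.042), and 0 higher. Of the 18, 13 had negative values, with a median of -1.48. Their median level was 10.96 in dorsal and 10.47 in lateral samples at 4 days, against 13.68 and 11.77 at 2 days. The summed level, in which bright genes weigh most, was 17.19 to 17.86 in dorsal and 17.71 to 17.78 in lateral samples at 4 days. At 2 days it was 17.81 to 18.92 in dorsal and 17.35 to 17.76 in lateral samples, so that the lateral ranges overlapped. Over time the F test called 9 of the 18 ependymal markers, against 8.08% of all genes. Late against early, 4 of them were lower and 2 higher in lateral samples, against 5.17% of all genes in either direction. In dorsal samples 2 were lower and 1 higher, against 3.18%. Between 7 and 14 days 2 were higher and 0 lower, against 0.51% of all genes higher. On every array at least 9 astrocyte, 11 radial glia, 16 neuroblast, 15 ependymal and 5 choroid plexus markers were well above background in 1 channel or both. The part of these cell types in the members' changes was not tested.

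**Figure D5:**
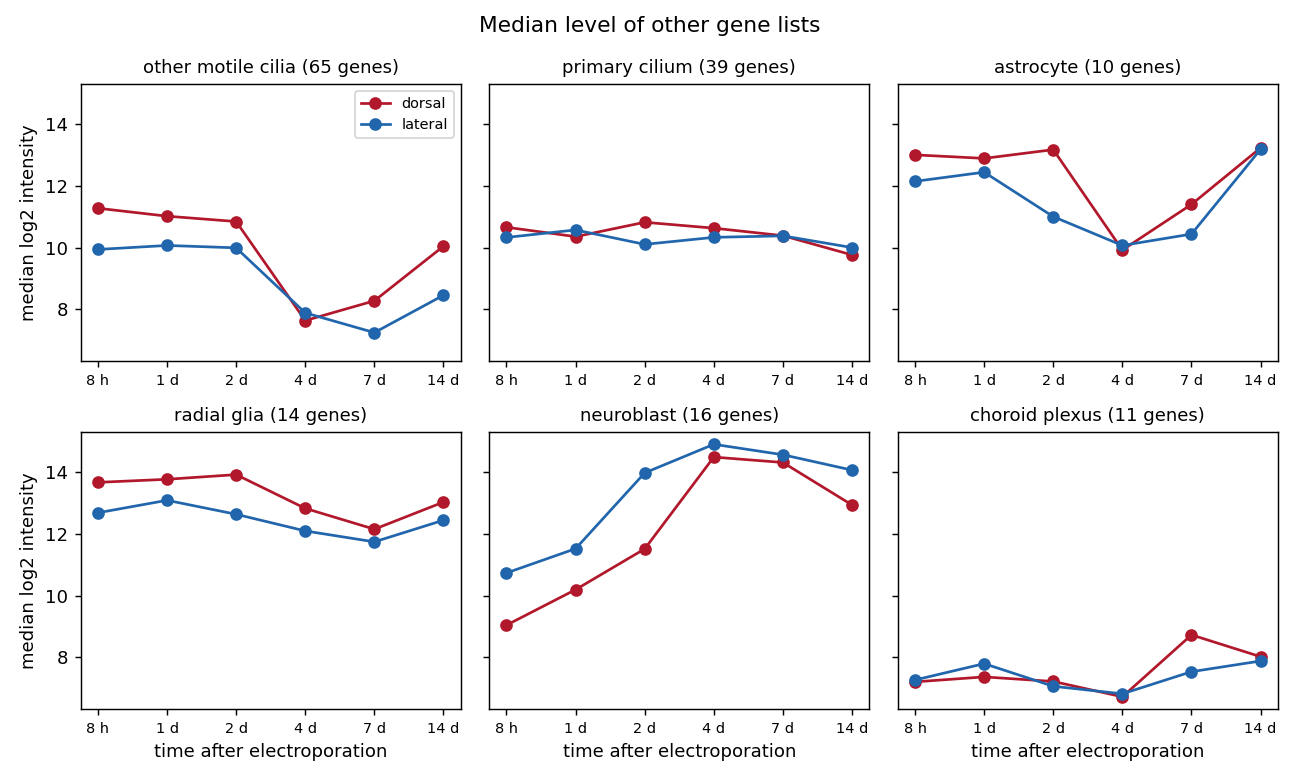
Median log2 intensity of 6 other gene lists (y axis) by time after electroporation (x axis) in dorsal (red) and lateral (blue) samples, over the number of genes given in each title. The motile cilia list falls to 7.64 in dorsal and 7.89 in lateral samples at 4 days, the astrocyte list is low at the same time, the neuroblast list is high then, and the primary cilium list stays between 9.76 and 10.82.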

How the data were processed

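RNA of sorted cells was measured on 17 Agilent arrays of 2 colours. Per the file headers, spot intensities were deposited as Agilent Feature Extraction wrote them (versions 10.5.1.1 and 10.7.3.1), on a linear scale and not normalized, with a log10 ratio of Cy5 over Cy3. The deposited value table holds log2 ratios that correlated with that log10 ratio at -0.97 to -0.90, with slopes of -3.29 to -3.03 and column medians of -0.16 to 0.04, so that it runs as Cy3 over Cy5 and how it was normalized and centred stays unknown.

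Mean and background intensities were corrected with normexp (offset 50), normalized by loess within arrays and Aquantile between them, and averaged over spots of a probe. Control and outlier spots were left out (1639 control and 43379 other spots per array, 0.32 to 2.61% outliers). Probes well above background on at least 2 arrays were kept, and the brightest stood for its gene. The direction of the walls comes from the labels, dorsal in Cy3. limma 3.58.1 in R 4.3.3 fitted dorsal minus lateral, the mean of both walls and each wall over 6 time points, on 24349 genes, with Benjamini-Hochberg adjustment over all genes and a threshold of 0.05. The number of arrays limits the precision, and p-values measure the spread between arrays that the labels call biological replicates. Scripts were tested on simulated data. In the step from 2 to 4 days 26% of genes shifted by 2 on the log2 scale were recovered, 69% of those shifted by 4 and 91% by 6. At a shift of 2, 82% were recovered for the mean wall difference and 54.5% for late against early in lateral samples. A count of 0 in that step therefore does not show that genes were unchanged. Figures used matplotlib 3.10.9.

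The genes named are Foxj1, Ccdc153, Dynlrb2, the 3 brightest of each role, and the 5 largest called between the walls or late against early, with at most the 3 largest called of each other list; exceptions are marked. The members and lists were chosen with earlier results of these data known. Probe positions are on mm9, per the file headers, and promoters are RefSeq's on GRCm38.p6. Alternatives covered the background correction, normalization, filter, probe summary, array weights, slide, replicate number, the deposited table and each array left out.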

Additional observations from a re-analysis of the deposited data

Results flagged for a closer look

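In groups of 4 samples, which only 14 days has, a sample was singled out where its gap to the nearest other exceeded Dixon's 95% critical value. Of 66 groups tested 8 did so, and chance singles out about 1 in 20. Dnali1 had a dorsal log2 intensity of 8.92 in replicate 2, against 14.50 to 15.59 in the others, and a dorsal minus lateral difference of -0.20 there, against 6.30 to 6.35. Tekt2 had 7.92 in dorsal replicate 2, against 8.61 to 8.69. Bbs5 had 7.10 in lateral replicate 2, against 10.77 to 11.23, and Ift20 had 16.22 there, against 15.03 to 15.13. The dorsal minus lateral difference of Rsph9 was -1.70 in replicate 2, against 1.46 to 2.01. Rsph4a had 8.86 in lateral replicate 3, against 6.03 to 6.25. The difference of Spag16 was 0.14 in replicate 4, against -0.09 in each of the others, a gap of small size. Replicate 2 of 14 days is the array with 41.0% of dorsal probes well above background, and the part of this in its values was not tested.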

How the results depend on the processing

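The alternatives with slide as a fixed block and within slides were chosen after seeing the data. The counts of members called were 3 for the mean wall difference, 0 at single times, 0 for its late minus early change, 10 over time, 2 and 5 for late against early in dorsal and lateral samples, 0 and 1 for 14 days against 8 hours in dorsal and lateral samples, and 8 over the 5 steps. Array weights gave 6, 2, 31 (over time), 9, 12, 1, 3 and 36 (steps), with the change left at 0. All genes called moved with them, to 54.2% over time and 5.66% between walls. Slide as a random block (consensus correlations -0.18 and -0.24) gave 10, 15, 29, 4, 9, 4, 7 and 23 for the same results, with 50.6% of all genes called over time and 13.8% between walls. Without both arrays that stand apart the counts were 7 (walls), 6 (single times), 9 (lateral late against early), and 1 and 2 (14 days against 8 hours). The scanner software's processed signals gave 1 for the walls, 1 for dorsal late against early and 5 for the steps. Median centring gave 8 for the walls and 3 at single times, quantile normalization 1 and no filter 2 at single times, a filter of 9 arrays 1 and the mean over probes 1 for dorsal late against early, and 1 for the walls with the deposited values. The replicate block gave 0 for the walls and 0 for dorsal late against early, and 9 over time. In the mean of both walls, same-numbered arrays of different times had correlated deviations of r from -0.13 to 0.33 (36 pairs, median 0.02). Of these pairs 6 lay over 0.1, against 9 of 83 pairs with unlike numbers. The dorsal minus lateral differences were not checked in this way. The letters in the titles of the 1 day and 14 days arrays do not all match these numbers. The numbers were not taken to pair the samples, although at 2, 4 and 7 days they coincide with slides. Leaving out 1 array at a time gave 1 to 5 (walls), 0 to 4 (single times), 0 to 0 (change), 4 to 14 (over time), 0 to 6 (dorsal) and 4 to 7 (lateral late against early), 0 to 1 (dorsal) and 0 to 2 (lateral, 14 days against 8 hours) and 2 to 15 (steps). Where 1 array is left at a time point, it is assumed to vary like the others. The wall difference of Spag9 reversed to -0.12 with median centring and -0.24 with the mean over probes. The calls over time of Ccdc153, Dnali1, Dynlrb2 and Foxj1 held in all 28 alternatives, as did the lateral late against early calls of Foxj1, Dnali1, Ift122 and Rsph4a. Of the single-gene values 631 kept direction and side of the threshold, 182 kept direction only and 2 reversed. The causes of these changes were not tested. Probes near background limit what can be seen, since 30 of 47 members' probes were well above background on all 17 arrays.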
